A study of Mus musculus with 2 samples.

Results

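Matrix metalloproteinases (Mmp genes), the ADAMTS proteases (Adamts genes), the ADAMTS-like proteins (Adamtsl genes) and the tissue inhibitors of metalloproteinases (Timp genes) were described in the gastrocnemius, the large calf muscle, of young mice. The members were all genes with a protein_coding transcript whose symbol is Mmp, Adamts, Adamtsl or Timp followed by a number and at most 1 letter. This rule used names alone and found 51 genes of 55536 annotated genes, with 23 Mmp, 19 Adamts, 5 Adamtsl and 4 Timp genes. Total RNA was sequenced from 2 male mice of strain B6CASTF1/J, named B6Cast F1 in the labels, at 25 days of age. It is the first-generation cross of C57BL/6J and CAST/EiJ. A single library was made per animal, from 300 ng of RNA with ERCC spike-ins (synthetic control RNAs), and the labels name no treatment. The labels number the tissue samples as different males but give both the same donor entry. There is 1 group, so no condition was compared and the spread between the animals is the only error measured.

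The libraries held 35098487 expected counts in animal 1 and 37428588 in animal 2, and the members took 0.0544% and 0.0523% of them. Where no read was counted, 3 counts are still possible by counting error alone, which is 0.0855 CPM in animal 1 and 0.0802 CPM in animal 2 (counts scaled to the library's total). Levels are deposited TPM, a measure of transcript share corrected for transcript length, and coordinates are those of mm10. All 7 muscle fibre markers were detected, with skeletal actin Acta1 at 21950 and 23735 TPM, as the tissue label says. The RNAs Rn7s1 and Rn7s2 took 26.6% and 29.8% of all TPM, which lowers the TPM of every other gene.

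As background, the extracellular matrix around muscle fibres is built mainly by fibroblasts and is remodelled by secreted and membrane-bound zinc proteases. MMPs and ADAMTS proteases are made as inactive proforms, and many are activated by furin-like convertases or by other MMPs. TIMPs occupy the active site of MMPs and of some ADAM and ADAMTS proteases. ADAMTS-like proteins resemble ADAMTS proteases but lack the protease domain, and several bind the fibrillin microfibrils of the matrix.

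All 4 inhibitors, all 5 ADAMTS-like genes, 9 of 19 Adamts genes and 4 of 23 Mmp genes were detected, which here means a TPM of 1 or more in both animals. That is 22 of 51 members, or 43.1%, beside 45.4% of the 21901 genes with a protein_coding transcript. Of the others, 23 members had counts but stayed under the threshold, and 6 had 0 counts in both animals. A TPM under 1 is read here as not detected at this threshold, not as absent. The members summed to 188.8 TPM in animal 1 and 179.2 TPM in animal 2, and 5 of them averaged 10 TPM or more: Timp2, Mmp2, Timp3, Adamtsl5 and Adamtsl4.

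**Figure D1:**
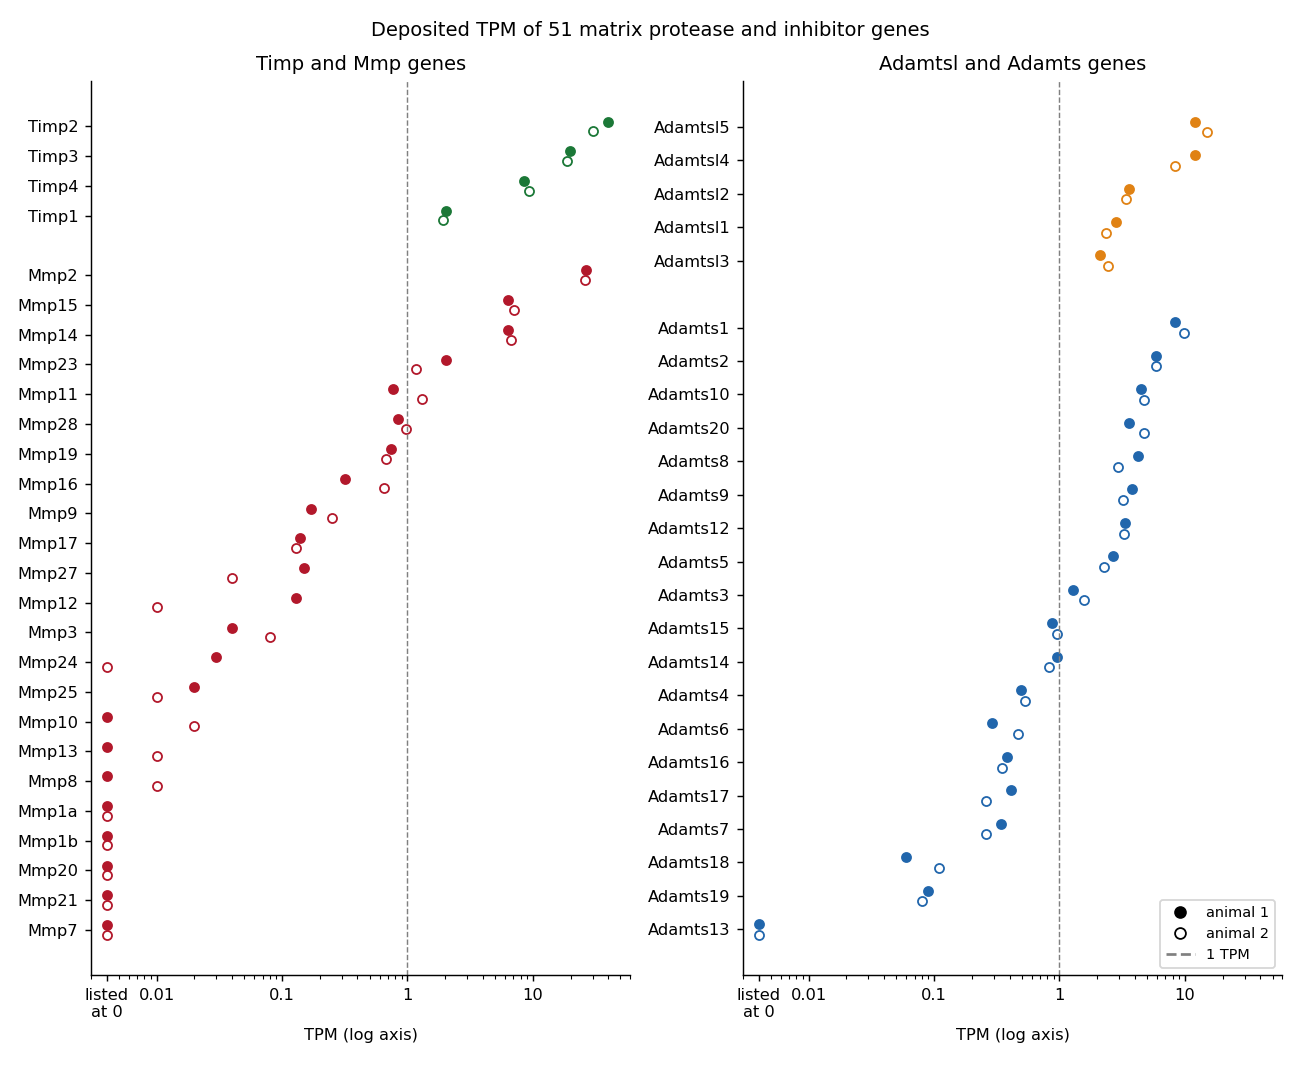
Deposited TPM of each of the 51 members on a log axis, with filled points for animal 1 and open points for animal 2, ordered by mean within family; the dashed line marks 1 TPM. All Timp and Adamtsl genes lie right of the line, while 4 Mmp genes do so in both animals.

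Inhibitor transcripts outweighed those of the MMPs. The Timp genes summed to 70.46 TPM in animal 1 and 60.26 TPM in animal 2, against 44.44 and 44.96 TPM for the Mmp genes. The ratio of these sums was 1.46 ± 0.173 (SD, n = 2), with 1.59 in animal 1 and 1.34 in animal 2. Adamts genes summed to 41.42 and 42.35 TPM, and Adamtsl genes to 32.46 and 31.68 TPM. As a share of the members' TPM, the Timp genes took 35.5% ± 2.62 and the Mmp genes 24.3% ± 1.09. The Adamts genes took 22.8% ± 1.19 and the Adamtsl genes 17.4% ± 0.339 (SD, n = 2 throughout). Set against both protease families together, the inhibitors were the lower sum, at 0.821 and 0.69 times the Mmp and Adamts total. The second quantification, deposited as a separate transcript table, gave a higher Timp to Mmp ratio of 2.2 in animal 1 and 1.74 in animal 2. These are ratios of transcripts and not of proteins or of enzyme activity.

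**Figure D2:**
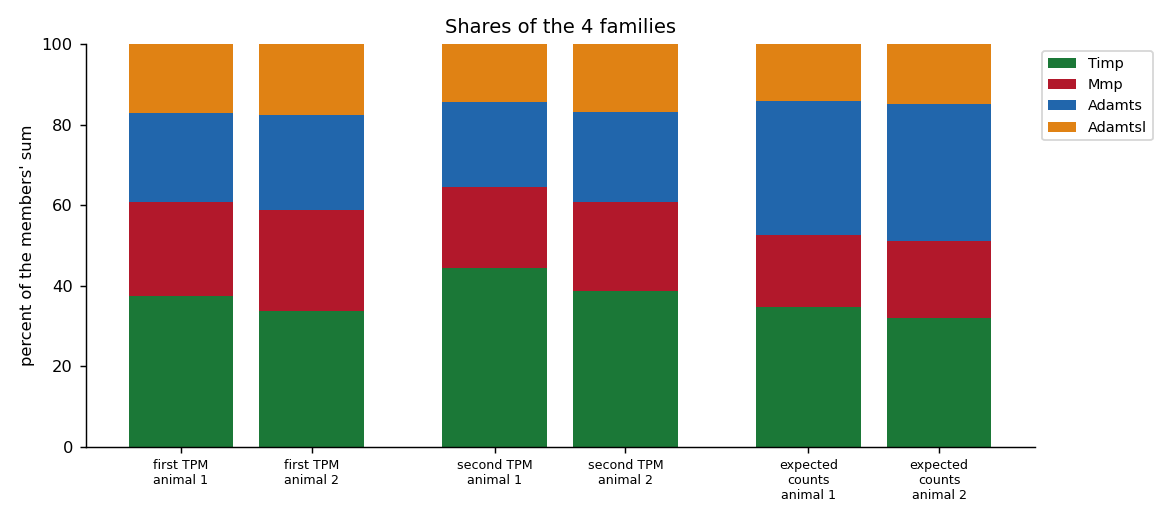
Share of the members' sum taken by each family, in percent, for each animal in the first quantification's TPM, the second quantification's TPM and the expected counts, which are not corrected for length. The Timp share is the largest of the 4 in both TPM measures, and the Adamts share reaches 33.7% of the expected counts.

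Among the inhibitors, Timp2, which blocks MMPs and also bridges Mmp14 to proMmp2 during activation of that protease, had 40.18 TPM in animal 1 and 30.22 TPM in animal 2. It was the highest member in both animals and stood above 94.4% of the genes with a protein_coding transcript by mean TPM. Timp3, the inhibitor that binds to the matrix and also blocks ADAM17 and aggrecanases, had 19.79 and 18.76 TPM. Timp4, best known from heart muscle, had 8.46 and 9.35 TPM. Timp1, which is known to be induced in injured and inflamed tissue, was the lowest, at 2.03 and 1.93 TPM from 43 and 44 counts. The 4 genes kept the same order in both animals and did not overlap. Timp2 alone carried 21.3% of the members' TPM in animal 1 and 16.9% in animal 2.

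The MMP transcripts were mostly those of Mmp2, gelatinase A, which cleaves denatured and basement-membrane collagens. It had 26.34 TPM in animal 1 and 25.91 TPM in animal 2, the second level among all members. Mmp14, the membrane-bound protease that activates proMmp2, had 6.35 and 6.68 TPM. Mmp15, a second membrane-bound MMP, had 6.35 and 7.05 TPM, so the pair could not be ordered. Mmp23, a small type anchored to the membrane, had 2.04 and 1.17 TPM from 76 and 42 counts. Mmp11, stromelysin-3, had 30 counts in each animal but 0.77 and 1.3 TPM, since the table's length for it was 1455 bases in animal 1 and 853.5 bases in animal 2. It therefore reached 1 TPM in animal 2 only.

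The other 18 Mmp genes stayed under 1 TPM in both animals, Mmp28, epilysin, being the highest at 0.85 and 0.97 TPM. Mmp9, gelatinase B, which neutrophils store in granules, had 9 and 20 counts and 0.17 and 0.25 TPM. The 8 neutrophil markers summed to 0.25 TPM in animal 1 and 0.33 TPM in animal 2, with Ly6g and Elane at 0 counts in both. The members classed here as collagenases are not all the MMPs able to cut collagen. Of that class, Mmp8 and Mmp13 had 0 counts in animal 1 and 1 count in animal 2, and Mmp1a and Mmp1b had none. The matrilysin Mmp7, the tooth enamel protease Mmp20 and Mmp21 had 0 counts in both animals.

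Of these low genes, 10 lie next to each other on chromosome 9 between positions 7272514 and 7699585, a span of 427 kb with no other protein-coding gene inside. They are Mmp13, Mmp12, Mmp1b, Mmp3, Mmp1a, Mmp10, Mmp8, Mmp27, Mmp20 and Mmp7, which hold all 4 members of the collagenase class. None was detected, the highest mean was 0.095 TPM (Mmp27), and the 10 genes together had 10 counts in each animal. In the second quantification they had 41.4 counts in animal 1 and 42.8 in animal 2, of which Mmp12, macrophage elastase, held 30.4 and 33.8. Mmp12 was then the highest of the group, at 0.296 and 0.322 TPM. Elsewhere members also sit in pairs. Adamts1 and Adamts5, 108 kb from end to end on chromosome 16, were both detected. Adamts8 was detected and its neighbour Adamts15 on chromosome 9 fell just short, at 0.88 and 0.95 TPM. In the second quantification Adamts15 had 1.13 and 1.23 TPM and passed the threshold.

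The promoters of the chromosome 9 group read differently from those of the detected members, and 4 of each are shown for that contrast. Each is the stretch of 150 bases before the start of the gene in RefSeq, GRCm38.p6 (the assembly of mm10), 5′ to 3′ on the gene's strand. Capitals mark TGANTCA, the motif bound by AP-1 factors, TATAA within 50 bases before the start, and the GC box GGGCGG or its reverse complement CCGCCC. The group is represented by Mmp13 (chr9:7272364-7272513), Mmp3 (chr9:7445672-7445821), Mmp10 (chr9:7502192-7502341) and Mmp8 (chr9:7558279-7558428), all on the plus strand.
Mmp13: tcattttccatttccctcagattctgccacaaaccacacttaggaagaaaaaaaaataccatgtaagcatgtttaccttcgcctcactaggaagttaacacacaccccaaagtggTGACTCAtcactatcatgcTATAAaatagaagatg
Mmp3: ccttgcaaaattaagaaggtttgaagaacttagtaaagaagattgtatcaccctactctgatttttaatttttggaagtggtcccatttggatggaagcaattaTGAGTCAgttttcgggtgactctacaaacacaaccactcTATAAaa
Mmp10: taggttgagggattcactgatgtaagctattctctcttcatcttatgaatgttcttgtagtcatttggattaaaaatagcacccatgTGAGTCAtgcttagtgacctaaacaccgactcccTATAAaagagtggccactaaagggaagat
Mmp8: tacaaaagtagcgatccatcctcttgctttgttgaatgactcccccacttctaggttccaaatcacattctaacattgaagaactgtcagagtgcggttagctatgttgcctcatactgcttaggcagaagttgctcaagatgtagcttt
The detected members are Mmp14 (chr14:54431448-54431597, plus strand), Timp1 (chrX:20870016-20870165, plus strand), Adamtsl4 (chr3:95687918-95688067, minus strand) and Adamts1 (chr16:85803114-85803263, minus strand).
Mmp14: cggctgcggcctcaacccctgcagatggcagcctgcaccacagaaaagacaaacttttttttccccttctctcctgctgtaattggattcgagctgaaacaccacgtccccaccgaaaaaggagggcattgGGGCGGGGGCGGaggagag
Timp1: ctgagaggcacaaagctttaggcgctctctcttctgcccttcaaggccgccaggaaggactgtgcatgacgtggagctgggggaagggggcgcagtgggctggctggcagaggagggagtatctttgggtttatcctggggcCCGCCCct
Adamtsl4: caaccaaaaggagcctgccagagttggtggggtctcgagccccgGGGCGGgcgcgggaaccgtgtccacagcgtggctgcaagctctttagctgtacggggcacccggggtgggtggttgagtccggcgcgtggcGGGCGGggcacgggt
Adamts1: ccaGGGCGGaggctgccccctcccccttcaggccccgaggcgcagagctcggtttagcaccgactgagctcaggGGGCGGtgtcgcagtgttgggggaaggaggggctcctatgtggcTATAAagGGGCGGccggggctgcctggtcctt
In these stretches Mmp13, Mmp3 and Mmp10 each hold 1 AP-1 motif followed by a TATA motif, and Mmp8 holds none of the 3 motifs. The 4 detected members hold GC boxes and no AP-1 motif, and Adamts1 also has a TATA motif. CpG dinucleotides number 1 or 2 in the group's 4 stretches, against 7 in Mmp14, 5 in Timp1, 15 in Adamtsl4 and 9 in Adamts1.

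The same contrast was described over all 36 members that have an entry, using the full window of 250 bases before and 50 bases after the start. All 10 genes of the chromosome 9 group have an entry, but only 17 of the 22 detected members do, and Mmp2 is not among them. The group had a median of 1 CpG (range 0 to 4), and those 17 had a median of 24 (range 2 to 46). The 9 other members under the threshold that have an entry had a median of 19. Over 16519 genes with a protein_coding transcript and a window the median was 14. An AP-1 motif, which reads the same on both strands, was found in 7 of the 10 group windows, in none of the 17 detected members, in none of the 9 others and in 7.11% of all coding windows. Its first base stood between positions -95 and -35 from the start. A TATA motif on the gene's strand was found in 6 of the 10, in 3 of the 17, in none of the 9 and in 5.77% of all coding windows. A GC box on either strand was found in none of the 10, in 14 of the 17, or 82.4%, in 7 of the 9 and in 48% of all coding windows. Detected coding genes had a median of 22 CpG, an AP-1 motif in 4.31%, a TATA motif in 2.54% and a GC box in 67% of windows. Coding genes that were not detected, as the group was not, had a median of 5 CpG. Their windows held an AP-1 motif in 9.65%, a TATA motif in 8.69% and a GC box in 30.8%. Low CpG content did not go with a low level in every member, since Timp4 had 2 CpG and averaged 8.9 TPM, and Mmp24 had 44 and averaged 0.015 TPM. The first window listed for a gene was used, and the group's values depend on that choice. The second window of Mmp12 holds an AP-1 motif, while the second window of Mmp7 holds 7 CpG and neither an AP-1 nor a TATA motif. These matches describe letters of the reference assembly and not binding, and the CAST/EiJ alleles of these animals were not examined.

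**Figure D3:**
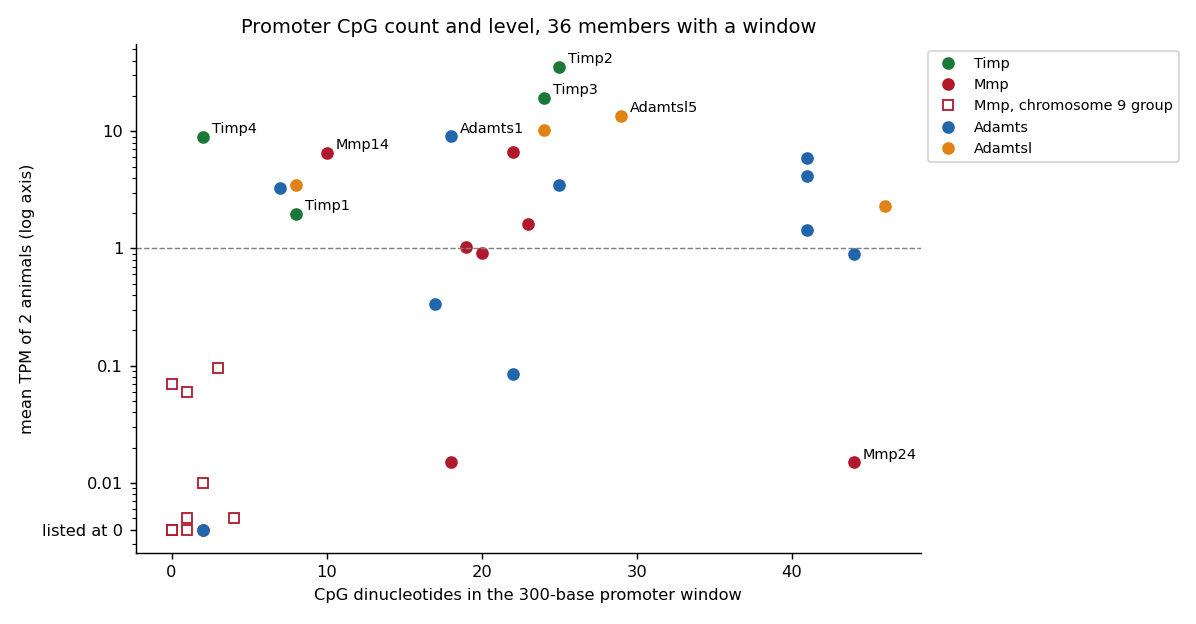
Mean TPM of the 2 animals on a log axis against the number of CpG dinucleotides in the 300-base promoter window, for 36 members; open squares are the chromosome 9 group and the dashed line marks 1 TPM. The squares lie at 0 to 4 CpG and under 0.1 TPM, and Timp4 lies at 2 CpG and 8.9 TPM while Mmp24 lies at 44 CpG and 0.015 TPM.

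The 9 detected Adamts genes lay between 1.28 and 9.84 TPM. Adamts1, which cleaves versican and aggrecan, had 8.27 TPM in animal 1 and 9.84 TPM in animal 2 and was the highest. The other proteoglycan-cleaving relatives that were detected were Adamts20 at 3.61 and 4.69 TPM, Adamts8 at 4.24 and 2.93 TPM, Adamts9 at 3.78 and 3.24 TPM and Adamts5 at 2.65 and 2.27 TPM. Adamts4 and Adamts15 of that group stayed under 1 TPM in both animals. Of the 3 procollagen N-proteinases, which trim the amino end of fibrillar procollagens, Adamts2 had 5.94 and 5.91 TPM and was above Adamts3, at 1.28 and 1.58 TPM, and Adamts14, at 0.95 and 0.83 TPM.

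Adamts10, which binds fibrillin-1, had 4.44 and 4.75 TPM. Adamts12, which cleaves cartilage oligomeric matrix protein (COMP), had 3.32 and 3.3 TPM, against 0.34 and 0.26 TPM for its relative Adamts7. Adamts13, the liver-made protease of von Willebrand factor, had 0 counts in both animals. Adamts6, Adamts16 and Adamts17 averaged between 0.335 and 0.38 TPM.

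Of the ADAMTS-like genes, Adamtsl5, which binds fibrillin, had 11.95 TPM in animal 1 and 15.15 TPM in animal 2, and Adamtsl4, which is needed for the fibrillin fibres that hold the lens of the eye, had 12.05 and 8.33 TPM. They changed places between the animals, so neither was the higher. Adamtsl2, which binds fibrillin-1 and a latent TGF-beta binding protein, had 3.56 and 3.41 TPM. The matrix proteins Adamtsl1 and Adamtsl3, also called punctins, had the lowest means of the 5. Adamtsl1 had 2.8 and 2.33 TPM, and Adamtsl3 had 2.1 and 2.46 TPM.

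Over the 22 detected members in order of mean TPM, the ranges of the 2 animals were apart in 9 of 21 neighbouring pairs. These ranges use the 2 TPM values alone, and the intervals deposited with the TPM overlap in some of those pairs. In animal 1 they were 2.93 to 4.95 for Adamtsl2 and 2.98 to 3.64 for Adamts12. In animal 2 they were 27.4 to 32.2 for Timp2 and 23.8 to 27.7 for Mmp2. The order Timp2, Mmp2, Timp3 held with ranges apart, and Adamtsl5 came next. Adamtsl5, Adamtsl4, Adamts1 and Timp4 formed a run in which no neighbours were apart, as did Adamts10, Adamts20, Adamts8, Adamts9 and Adamtsl2.

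Part of this RNA was assigned to transcripts not annotated as protein coding. For the 23 members with a mean of 1 TPM or more, the share of gene TPM in transcripts of other types, such as retained introns, had a median of 10.4%, beside 7.59% for all genes with a protein_coding transcript at that level. In the second quantification these medians were 9.22% and 9.29%, so the members did not stand above the other genes there. The Timp genes stood between 0 and 3.42%. In Adamts10 the share was 79.8% in animal 1 and 69.5% in animal 2, and the transcripts of protein_coding type had only 0.9 and 1.45 TPM of its 4.44 and 4.75. Its most abundant transcript was Adamts10-213, a retained intron of 752 bases. In Adamtsl5 the share was 58.9% and 55.3%, which leaves 4.92 and 6.77 TPM in protein_coding transcripts. The retained intron Adamtsl5-203, of 3520 bases, was its first transcript. In the second quantification the shares were 78.3% and 73.6% in Adamts10 and 77.9% and 70.8% in Adamtsl5, and only these 2 genes were over 50% in both animals and both quantifications. By protein_coding transcripts Adamtsl4, at 9.83 and 8.3 TPM, was above Adamtsl5 in both animals.

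**Figure D4:**
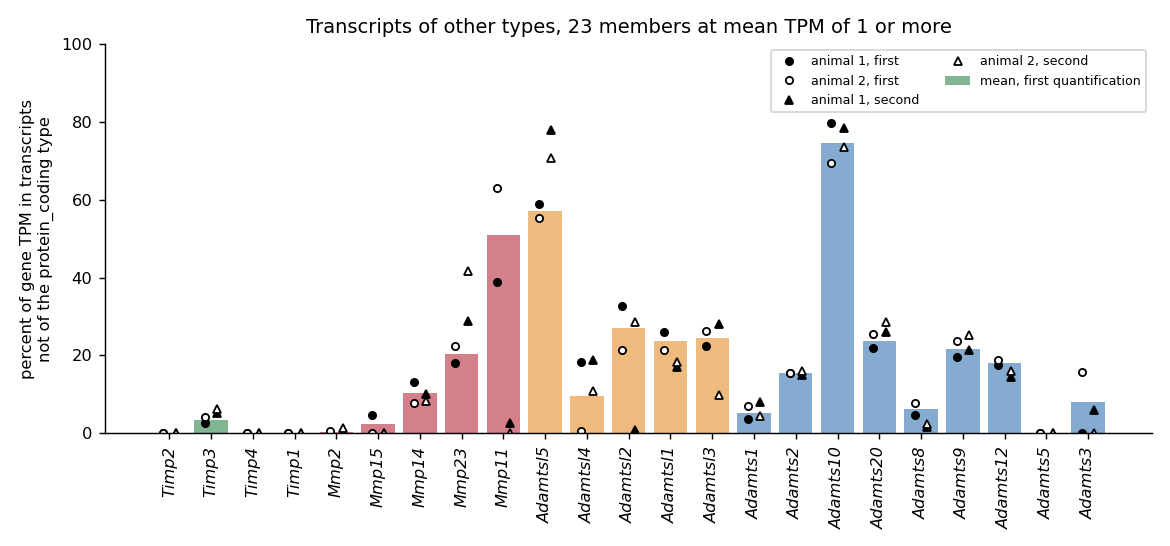
Percent of gene TPM in transcripts not of the protein_coding type for 23 members, with bars for the mean of the first quantification and points for each animal in each quantification. Adamts10 and Adamtsl5 lie over 50% at all 4 points, and the Timp genes lie near 0.

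In 19 of the 23 members a single transcript was the most abundant in both animals and both quantifications. The 4 others were Adamtsl1, Mmp11, Timp1 and Timp2. Timp2 has a long transcript, Timp2-201 of 3709 bases, and a short one, Timp2-202 of 718 bases. The short one took 31.6% of its TPM in animal 1 and 24.6% in animal 2, but 55.1% and 49.2% in the second quantification. Adamtsl4-202 took 57.3% of its gene in animal 1 and 95.4% in animal 2. In Mmp11, the short nonsense-mediated decay transcript Mmp11-203 took 39% and 59.2% in the first quantification and 0 in the second.

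Several members overlap other genes, and the use of strand in counting is not given in the sources used here, so reads of opposite genes cannot be told apart. Timp1, Timp3 and Timp4 each lie inside a synapsin gene on the opposite strand. Those genes, Syn1, Syn3 and Syn2, averaged 0.04, 0.075 and 0.61 TPM, well under their Timp genes. Mmp11 shares 155 exon bases with Chchd10, which had 470 TPM in animal 1 and 512 TPM in animal 2. The transcript Mmp11-203 shares no base with Chchd10.

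Summed over transcripts, the second quantification was above the first in each of these 23 members, with a median ratio of 1.34. All coding genes at that level had a median ratio of 1.43. Timp2 differed most, at 2.04-fold, with 81.5 TPM in animal 1 and 62.4 TPM in animal 2.

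The animals were compared as libraries, by an exact two-sided binomial test of rounded expected counts on TMM-scaled library sizes, adjusted by the Benjamini-Hochberg method over 14754 genes. It covers sampling error between these libraries only, and an exact test over the 2 animals themselves cannot go below p = 0.5. Ratios are log2 of animal 1 over animal 2. The test called 9 of the 36 members with enough counts, or 25%, where 14.4% of all genes tested were called; 15 members were not tested. All 9 were among the 22 detected members, a share of 40.9%, and of coding genes with a mean of 1 TPM or more 17.2% were called. Of the 9, 7 were higher in animal 1 and 2 were lower, beside 7.74% and 6.64% of all genes tested and 9.1% and 8.07% of those coding genes. The 36 members had a median log2 ratio of 0.13, against 0.002 for all genes tested. Differences were small, with a median absolute log2 ratio of 0.155 in the 22 detected members and 0.111 in coding genes at 1 TPM or more. In bulk tissue, fewer cells of a type and less RNA per cell cannot be told apart.

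Mmp23 differed most, with a log2 ratio of 1.05 (95% interval 0.50 to 1.64, adjusted p = 0.0017 by the exact binomial test). It was the only member called at more than 2-fold, as were 1.8% of all genes tested and 0.782% of coding genes at 1 TPM or more. Adamts8, with 432 counts in animal 1 and 316 in animal 2, was higher in animal 1 by 0.65 (0.44 to 0.87). Timp2, with 3088 and 2655 counts, was higher by 0.42 (0.34 to 0.50), and Timp3, with 2581 and 2526, by 0.23 (0.15 to 0.31). Adamts9 was higher by 0.38, Adamtsl4 by 0.36 and Adamts5 by 0.34. Adamtsl5 was lower in animal 1, with 704 and 975 counts and a log2 ratio of -0.27, and so was Adamts20, at -0.23 with an exact binomial adjusted p = 0.0454. The closest miss was Mmp2, with a log2 ratio of 0.13 (0.03 to 0.22) and an exact binomial adjusted p = 0.0581.

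**Figure D5:**
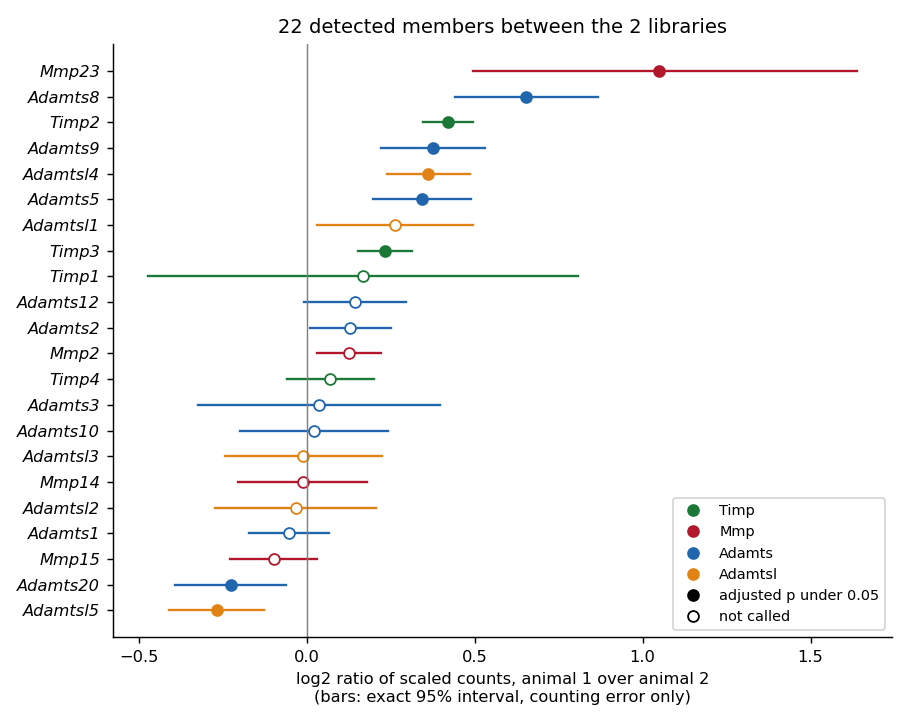
Log2 ratio of TMM-scaled counts, animal 1 over animal 2, for the 22 detected members with exact 95% intervals that cover counting error only; filled points passed an adjusted p of 0.05. The 7 filled points right of 0 and the 2 left of it are the called members, and Mmp23 is the only one past a log2 ratio of 1.

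Ratios of TMM-scaled counts and of TPM differed. Over nuclear coding genes at 5 TPM or more the median log2 ratio was -0.0042 after TMM and -0.123 by TPM. Adamts1 had a log2 ratio of -0.25 by TPM and of -0.05 (-0.17 to 0.07) in scaled counts, and the length given for it also differed, at 4551 bases in animal 1 and 4312 in animal 2. When edgeR's exact test was given a common dispersion of 0.0123 estimated from these 2 libraries, none of the members was called, and 1.22% of all genes tested were. That dispersion was estimated with both libraries as 1 group, so it already holds the differences under test. The lack of calls therefore cannot show that the members do not differ. At an unadjusted p under 0.05 this exact test found 2 members, Mmp23 (p = 0.00398) and Adamts8 (p = 0.00956), beside 5.12% of all genes.

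Genes that activate, clear or are cut by these proteases were taken from 7 lists, and 18 of their 43 tested genes were called, or 41.9%, beside 14.4% of all genes tested and 17.2% of coding genes at 1 TPM or more. With the common dispersion 4 list genes were called, Col1a1, Col1a2, Comp and Pcolce2, where 1.22% of all genes tested were. The median log2 ratio was 0.37 in the tolloid and procollagen C-proteinase list, 0.19 in the substrates and 0.15 in the plasminogen system. It was 0.12 in the convertases, 0.08 in the inhibitors and partners, -0.10 in the ADAM sheddases and -0.22 in the clearance receptors. Of 4 proprotein convertases, 1 was called, Pcsk6, with 9.57 TPM in animal 1 and 9.81 TPM in animal 2 and a log2 ratio of 0.25. Furin, the highest, had 16.05 and 17.53 TPM. Of 8 tested inhibitors and partners, Bsg, the basigin that induces MMPs in fibroblasts, was higher in animal 1 by 0.12 in scaled counts, at 201.2 and 200.5 TPM. Reck, a membrane-anchored MMP inhibitor, was higher by 0.48, at 1.24 and 0.97 TPM, and the serpin Serpine2 was lower, at 26.4 and 32.9 TPM. Cst3, cystatin C, had 199 and 211 TPM and was not called. The endocytic receptor Lrp1, which clears MMPs and TIMPs, was the 1 called of 3 clearance receptors, at 21.4 and 22.7 TPM with a log2 ratio of 0.16, and Cd44 had 1.72 and 2.39 TPM.

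In the plasminogen system, urokinase Plau, at 8.53 and 7.65 TPM, was the 1 called of 2 and was higher by 0.28, and Plat had 2.55 and 2.63 TPM. Of 8 ADAM sheddases, which release membrane proteins, only Adam19 was called, lower in animal 1 by a log2 ratio of -0.56, at 2.19 and 3.14 TPM. Adam9 had 14.8 and 15.9 TPM and Adam15 had 8.99 and 8.55 TPM. Of 4 tolloid and procollagen C-proteinase genes, 3 were higher in animal 1: the protease Bmp1 by 0.28, its enhancer Pcolce by 0.47 at 41.4 and 30.9 TPM, and Pcolce2 by 1.00 at 2.39 and 1.33 TPM.

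Of 14 matrix substrates tested, 7 were higher in animal 1 and 1 was lower. The type I collagen genes were highest, Col1a1 with 864 TPM in animal 1 and 469 TPM in animal 2, and Col1a2 with 508 and 316 TPM. Their log2 ratios were 1.01 and 0.91, and that of Comp was 0.94. Marker genes of cell types were counted by the same test, and 42 of 72 tested were called, or 58.3%, and 9 with the common dispersion. Beside them, 14.4% of all genes tested were called, 7.74% higher and 6.64% lower in animal 1, and 1.22% with the common dispersion. Of 10 fibroblast markers, 6 were higher in animal 1 and 1 was lower, none was at 0, and they summed to 1322 and 922.6 TPM. Col1a1, Col3a1, Dcn and Lum are also among the substrates above, and all of these but Lum were called higher, so those calls are counted in both lists. Without Col1a1, the other markers summed to 458.5 TPM in animal 1 and 453.5 TPM in animal 2. Of 8 tendon markers, 5 were higher and none lower, and they summed to 166.7 and 127 TPM. All 6 slow fibre markers and 6 of 8 Schwann cell markers were lower in animal 1, summing to 1035 and 1924 TPM and to 57 and 116 TPM. Muscle fibre markers were higher in 6 of 7, with a median log2 ratio of 0.14. Mylpf, Tnnt3, Myh4, Atp2a1 and Pvalb, genes typical of fast fibres, lay between 0.11 and 0.26. Ckm, which had 462881 and 517464 counts, stood at only 0.04, and Acta1, at 0.005, was not called. Mural cell markers were lower in 4 of 7 (median -0.17) and endothelial markers in 2 of 8 (median -0.08), and none of these 3 lists held a gene called with the common dispersion. Macrophage and satellite cell markers each had 1 higher and 1 lower, of 8 and of 7. Of 8 bone and cartilage markers, Col2a1 and Acan, which is also a substrate above, were higher in animal 1. Bglap, Sp7, Ibsp and Sost had 0 counts in both animals. The part of these cell types in the members' ratios was not tested.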

How the data were processed

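Total RNA-seq was quantified in 1 library from each of 2 animals. Expected counts, TPM and transcript percentages in the first gene and transcript tables, and estimated counts and TPM in the second transcript table, were computed by the authors, per the file headers. Text deposited beside them gives the genome as mm10 and the annotation as GENCODE M21, and derives the second table from 1 read file. For the aligner, quantifier, their versions and the strand setting, nothing is given in the sources used here. Deposited FPKM values were left aside. The members and all gene lists were chosen with earlier results of these data known.

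The expected counts were rounded, then scaled by TMM (edgeR 4.0.16, R 4.3.3). The test was an exact binomial test conditional on each gene's sum over both libraries. It was two-sided and run where that sum was 20 or more. Genes were adjusted by Benjamini-Hochberg and called at an adjusted p under 0.05, or also over 2-fold with a prior count of 0.5. The quasi-likelihood test has no residual degrees of freedom here. The exact binomial test was also run on simulated counts with sampling error alone and with larger changes than the members showed. That run cannot show how calls of small differences behave under spread between animals. Intervals and floors cover counting error alone, because they were computed from the counts of 1 library per animal. No source used here names molecular identifiers for these reads.

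Members were matched by symbol and type in the transcript tables and by gene ID in the gene tables; the rule matches 51, of which Mmp1a has the gene type polymorphic pseudogene. Promoters are RefSeq windows of GRCm38.p6, found for 36 members. Protein sequences were not analysed here. Alternatives were the second quantification, other thresholds, other scalings (DESeq2 1.42.0 size factors, library totals, ERCC totals), a common dispersion and leaving out each animal. Named with values were members at a mean of 1 TPM or more, called members, the highest of each role, members at 1 TPM or more whose quantifications differed over 2-fold, and per list the 2 highest genes and up to 3 called genes with the largest ratios. Other genes named were chosen after their values were seen.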

Additional observations from a re-analysis of the deposited data

How the results depend on the processing

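The number of detected members was 22, between 22 and 23 without either replicate, 26 in the second quantification, 28 with TPM rescaled to nuclear coding genes, and 27 or 19 at thresholds of 0.5 or 2 TPM. The members added in the second quantification were Adamts15, Mmp28, Adamts14 and Mmp19. The Timp share was 33.6% to 37.3% without either replicate and 41.5% in the second quantification, against 35.5%. The Mmp share was 23.5% to 25.1% and 21.2%, against 24.3%, and the Adamts share was 21.9% to 23.6% and 21.8%, against 22.8%. With a common dispersion, estimated from the same libraries that were tested, 0 of the 9 called members were called and 0 were called over 2-fold. With it 4 list genes were called in place of 18, and 9 markers in place of 42, these list settings being added after the data were seen. With library totals in place of TMM, 0 members were called over 2-fold, and a limit of 1.5-fold gave 2. Library totals reversed the log2 ratios of Timp4 (-0.040), Adamts10 (-0.088) and Adamts3 (-0.072), and ERCC totals reversed Adamts10 (-0.010). The second quantification reversed Adamtsl3 (0.057). None of these 4 genes was called. With library totals Adamts1 (-0.161) and Mmp15 (-0.208) were called. Adamts20 was not called when all genes with a count were tested (exact binomial adjusted p = 0.0694), and Mmp2 was called at a summed count of 100 or more (exact binomial adjusted p = 0.0486); these settings change only the number of genes tested. For the other changes the cause was not tested. Rescaling TPM to nuclear coding genes multiplied every level by 2.57 in animal 1 and 2.46 in animal 2 (Timp2 averaged 88.9 in place of 35.2 TPM) and left the order of the members' levels within an animal as it was. In the second quantification 22 of 23 levels moved beyond 1 SD, and Timp2 averaged 72 TPM. Library totals left a median log2 ratio of -0.114 over coding genes. No paired analysis was possible because the labels give 1 group. Depth limits the members with few counts, the lowest detected having 42 counts in 1 animal.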
